A study of Mus musculus with 6 samples.

Results

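The genes described here are 10 transcription factors of keratinocytes, chosen by symbol as factors of basal identity or of squamous differentiation, among 24067 genes counted by RNA-seq in mouse tongue. They are Trp63, Sox2, Pitx1, Klf4, Klf5, Grhl1, Grhl2, Grhl3, Elf3 and Ovol1. The rule used symbols and not measured values, but earlier results of these data were known when the factors and gene lists were chosen. Counts called among them are therefore not independent of these data. All 10 were present and passed the filter on low counts that left 15903 genes for testing. The libraries came from C57BL/6 mice, 3 with the genotype label wild type (WT) and 3 with the label HuR knockout (KO), all about 34 weeks old. HuR, the product of Elavl1, is an RNA-binding protein that recognises AU-rich and U-rich stretches of messenger RNAs. Both groups had received the carcinogen 4-nitroquinoline 1-oxide (4NQO) for 16 weeks and were left for another 12 weeks, and each library was made from tongue together with its tumour. No unexposed tongues were compared. The sources used here do not give the knockout allele, the cells in which HuR was removed or the way in which replicates arose, and a p-value here reflects only how these libraries vary, which may be technical.

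Stratified epithelium of the tongue renews itself from a basal layer, whose cells leave the basement membrane, stop dividing and build a keratinised surface. Trp63 encodes p63, the factor that sets up and maintains the basal state. Sox2 and Pitx1 mark oral epithelium, and Sox2 is also known from taste bud progenitors and squamous carcinoma. Klf5 is a factor of dividing basal cells, while Klf4 and Elf3 are known for switching on barrier and envelope genes as cells move upwards. The Grainyhead-like factors regulate junction and barrier genes, and Ovol1 is a repressor that helps cells leave the cycle.

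The label KO did not come with less Elavl1, with 65.0, 59.3 and 78.4 CPM in KO replicates 1, 2 and 3 against 61.7, 55.8 and 48.0 CPM in WT replicates 1, 2 and 3. CPM is the count of a gene relative to the scaled total of its library. The groups overlapped and the estimate did not pass (0.29 ± 0.15 on the log2 scale, edgeR adjusted p = 0.180), so libraries are named by their labels and every direction is one between labels. Total counts ran from 29543352 to 51520707 per library, and the 10 factors had between 216 and 21739 counts in a library. Xist and Y-linked genes marked KO replicates 2 and 3 as female and the other 4 libraries as male. Fast muscle genes (20 of 20 measured) took up 5.02 to 6.87% of counts with the label KO against 8.68 to 13.2% with the label WT. These are whole tongues, so more epithelial cells and more RNA of a gene per epithelial cell cannot be told apart in any value below.

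All 10 factors had a higher mean in the libraries labelled KO, and 5 of them rose: Ovol1, Grhl1, Elf3, Grhl3 and Klf4, by 2.01 to 2.54-fold. Trp63, Pitx1, Grhl2, Sox2 and Klf5 did not pass the threshold, an adjusted p under 0.05 by edgeR's quasi-likelihood test with p-values adjusted over all 15903 genes. Over all genes tested, 4.81% were called higher in the libraries labelled KO by the same rule and 7.43% lower. The libraries of the 2 labels did not overlap for 9 of the 10 factors, all but Klf5, beside 22.0% of all genes tested with every library labelled KO above every library labelled WT. At an unadjusted p under 0.05 the same 9 were higher, beside 18.2% of all genes. The median log2 fold change was 0.92 over the 10 factors and 0.02 over all genes.

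**Figure D1:**
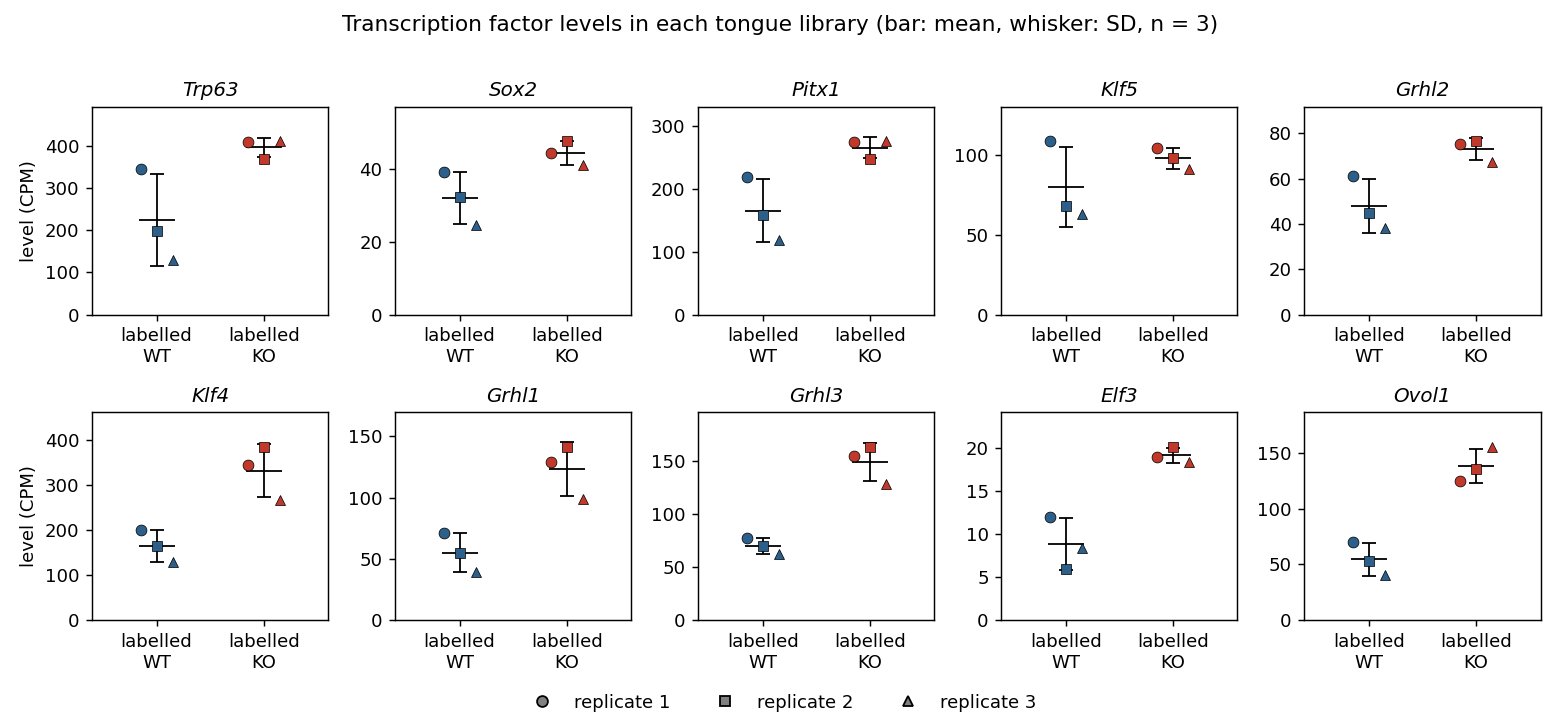
Level (CPM, linear axis from 0) of each factor in the 3 libraries labelled WT (blue) and the 3 labelled KO (red), with the mean and SD. WT replicate 1 (circle) is the highest library labelled WT in all 10 panels, and it exceeds a library labelled KO only for Klf5.

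Trp63, the master gene of the basal layer, had 409, 370 and 410 CPM across KO replicates 1 to 3, compared with 345, 197 and 130 CPM across WT replicates 1 to 3. The libraries labelled KO were close together, those labelled WT were spread 2.65-fold, and WT replicate 1 came near the lowest library labelled KO. The log2 fold change was 0.82 ± 0.32 (SE, 95% interval 0.08 to 1.56, edgeR adjusted p = 0.104). Trp63 spans chromosome 16 from 25683763 to 25892088 (GRCm38, gene identifier 22061), and the counts do not separate its long and its N-terminally truncated isoforms.

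Pitx1, a homeobox factor of the oral epithelium, measured 275, 247 and 275 CPM across KO replicates 1 to 3, compared with 218, 159 and 119 CPM across WT replicates 1 to 3. As for Trp63, the groups did not overlap and WT replicate 3 was lowest. The estimate was 0.68 ± 0.22 on the log2 scale (edgeR adjusted p = 0.0681). Sox2, an HMG-box factor of epithelial progenitors, had the smallest difference after Klf5. Its levels were 44.3, 47.4 and 41.1 CPM in the libraries labelled KO and 39.0, 32.2 and 24.6 CPM in those labelled WT, in replicate order. The groups did not overlap, but KO replicate 3 and WT replicate 1 were close together (log2 fold change 0.47 ± 0.17, edgeR adjusted p = 0.0925). Markers of other cells in which Sox2 is known, taste buds and Schwann cells, are given with the marker lists below.

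Of the pair of Krüppel-like factors only Klf4 passed, and a difference in change between them was not tested. Klf4, which acts in the upper layers, gave 344, 384 and 267 CPM across KO replicates 1 to 3, compared with 199.9, 164 and 130 CPM across WT replicates 1 to 3. The lowest library labelled KO lay above the highest labelled WT, with a 2.01-fold difference of means as fitted (95% interval 1.44 to 2.81, log2 fold change 1.01 ± 0.21, edgeR adjusted p = 0.0350). Klf5, its basal counterpart, gave 104, 98.3 and 91.1 CPM with the label KO, compared with 108, 68.0 and 62.9 CPM with the label WT. WT replicate 1 was the highest of all 6 libraries for Klf5, and the other two labelled WT were the lowest. The log2 fold change of Klf5 was 0.30 ± 0.21 and its 95% interval ran from -0.18 to 0.77 (edgeR adjusted p = 0.311).

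The Grainyhead-like factors share a DNA-binding fold and regulate junction, barrier and wound-repair genes. Grhl3, needed for the epidermal barrier, had the most even libraries of the 10 among those labelled WT. Its levels were 155, 163 and 128 CPM across KO replicates 1 to 3, compared with 77.3, 69.5 and 62.5 CPM across WT replicates 1 to 3. The groups lay far apart. The 95% interval of its fold was 1.70 to 2.67 around 2.13 (log2 fold change 1.09 ± 0.14, edgeR adjusted p = 0.0295). Grhl1, linked to desmosomal cadherins, gave 129, 141 and 98.4 CPM with the label KO, compared with 71.2, 55.1 and 39.1 CPM with the label WT. KO replicate 3 was the lowest of its group and WT replicate 3 of its own, without overlap (1.16 ± 0.23, edgeR adjusted p = 0.0334). Grhl2, which is expressed in simple as well as stratified epithelia, gave 75.2, 76.5 and 67.5 CPM against 61.2, 44.7 and 38.1 CPM. The groups did not overlap, but Grhl2 missed the threshold (0.60 ± 0.18, edgeR adjusted p = 0.0579), and a difference in change among the 3 family members was not tested.

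Ovol1, a zinc-finger repressor that helps cells leave the cycle, had the largest change of the 10. Its levels were 125, 135 and 155 CPM across KO replicates 1 to 3, compared with 70.2, 53.5 and 40.3 CPM across WT replicates 1 to 3. The groups did not overlap. The fitted fold was 2.54 (95% interval 1.83 to 3.52, log2 fold change 1.34 ± 0.20, edgeR adjusted p = 0.0295). KO replicate 3 was the highest library for Ovol1 while it was the lowest of its group for 7 of the 10 factors. Elf3, an ETS factor of epithelial differentiation and inflammation, was the scarcest, with 18.9, 20.1 and 18.4 CPM for the label KO, compared with 12.0, 6.00 and 8.44 CPM for the label WT. The libraries labelled KO lay close together and above all labelled WT (1.12 ± 0.24, edgeR adjusted p = 0.0360).

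Promoter sequences from RefSeq (build GRCm38.p6) were matched for 5 of the 10 factors: Sox2, Klf4, Grhl1, Grhl3 and Elf3. The 250 bases upstream of the start are shown for Grhl3 and Klf4, called factors that both lie on chromosome 4, to set 2 unlike promoters of genes that rose side by side. The Grhl3 window is chr4:135573633-135573882 and the Klf4 window chr4:55532476-55532725, both on the minus strand and written 5′ to 3′ on the gene's strand. Capitals mark matches to CACNCCC, a short form of the Krüppel-like factor motif, on either strand.
Grhl3: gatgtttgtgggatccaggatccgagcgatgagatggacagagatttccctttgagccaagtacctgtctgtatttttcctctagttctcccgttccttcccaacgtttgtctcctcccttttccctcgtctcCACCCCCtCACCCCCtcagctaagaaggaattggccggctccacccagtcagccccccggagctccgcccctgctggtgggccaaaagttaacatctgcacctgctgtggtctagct
Klf4: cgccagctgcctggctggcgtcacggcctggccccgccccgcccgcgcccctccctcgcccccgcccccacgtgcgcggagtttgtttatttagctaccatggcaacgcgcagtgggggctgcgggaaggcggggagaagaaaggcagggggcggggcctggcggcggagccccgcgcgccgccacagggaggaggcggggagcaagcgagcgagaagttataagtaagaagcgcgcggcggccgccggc

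The Grhl3 window held 2 such matches, 117 and 109 bases before the start, and the Klf4 window held none. The motif occurs in 26.1% of all 32851 RefSeq promoter windows of that length. GC content was 56.0% for Grhl3 and 74.0% for Klf4, against a median of 52.4% over all windows. The Grainyhead-like motif AACNGGTT was found in none of the windows of the 5 factors and in 1.79% of all windows. These matches describe letters only, since no binding was measured.

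The calls for these factors depended on which libraries were kept. Grhl3 alone was called without KO replicate 3 (log2 fold change 1.19, edgeR adjusted p = 0.0385), beside 0.306% of all genes called higher in that fit. None of the 10 was called without KO replicate 1 (0.0251% of all genes), KO replicate 2 or WT replicate 2 (0% of all genes each). In each of those 3 fits 7 factors were higher at an unadjusted p under 0.05, and no other tool was run on them. Over all genes 1922 of 15967, 1993 of 16204 and 1640 of 16016 were higher at that threshold, in the same order of fits. Without WT replicate 3, where 1.81% of all genes were called higher, the called factors were Klf4, Grhl1, Grhl3 and Ovol1, and Elf3 was not (1.09 ± 0.27, edgeR adjusted p = 0.0585). Without WT replicate 1, the library richest in these factors within its group, all 10 were called higher, beside 17.9% of all genes, Trp63 by 1.29 and Klf5 by 0.60 on the log2 scale. Leaving out single libraries moved the log2 fold change of Ovol1 between 1.16 and 1.58, that of Grhl3 between 1.02 and 1.19, that of Trp63 between 0.55 and 1.29 and that of Klf5 between 0.15 and 0.60, always above 0.

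DESeq2 on the same counts called 8 of the 10 higher, adding Trp63 (adjusted p = 0.0374), Pitx1 and Grhl2, where it called 12.2% of all genes higher. limma-voom called the same number as edgeR, 5, beside 6.17% of all genes. The authors' deposited table of all 6 libraries gives fold changes as labelled WT over labelled KO, so a negative value means a higher level in the libraries labelled KO. In the authors' deposited table of 6 libraries, 8 of the 10 had an adjusted p under 0.05 and a negative value, against 12.4% of all genes, with -1.24 ± 0.21 for Ovol1, -0.71 ± 0.27 for Trp63 and -0.27 ± 0.21 for Klf5. The authors' deposited table without KO replicate 3 and WT replicate 2 called 5 of the 10 (3.61% of all genes), namely Klf4, Grhl1, Grhl3, Elf3 and Ovol1. The authors' deposited table without KO replicate 3 and WT replicate 1 called all 10 (16.3% of all genes), with Klf5 at -0.59 ± 0.17. These tables share libraries and are not independent of each other.

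**Figure D2:**
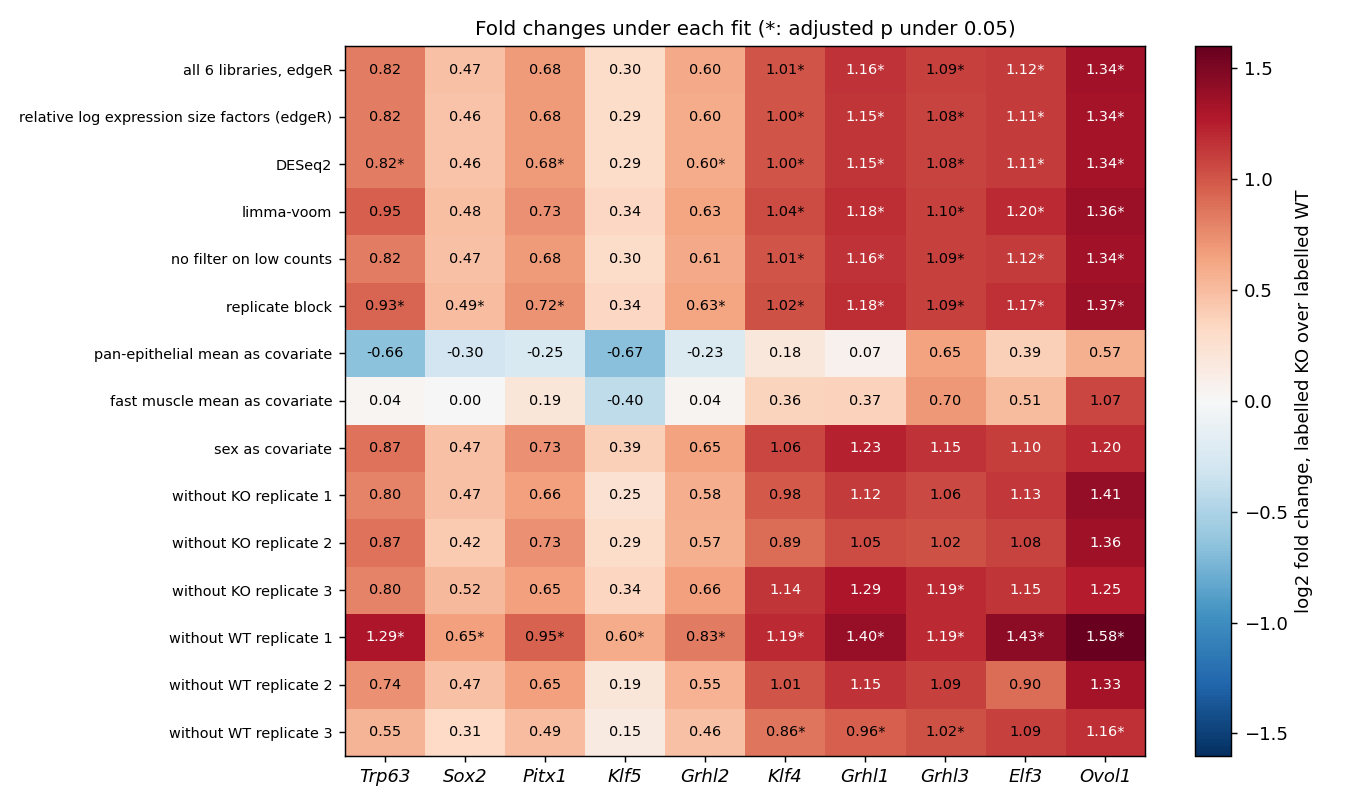
Log2 fold change, labelled KO over labelled WT, of each factor (columns) under each fit (rows), with an asterisk for an adjusted p under 0.05. Klf4, Grhl1, Grhl3, Elf3 and Ovol1 stay above 0 in every row, and the 5 others fall below 0 with the pan-epithelial mean as a covariate.

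The mean of epithelial genes in a library moved with these factors. Of 14 genes shared by epithelial layers, 7 rose and 0 fell, and the median change was 0.87 on the log2 scale. The 14 include genes of junctions and epithelial splicing, a membrane protease, protease inhibitors and genes of vesicle traffic. The groups did not overlap for any of the 14. The 7 calls became 0 without KO replicate 1, 2 or 3 or WT replicate 2 (12 to 14 at an unadjusted p under 0.05 by edgeR, the only tool run there), 1 without WT replicate 3 and 13 without WT replicate 1. St14, the membrane protease matriptase, averaged 102 ± 2.49 CPM with the label KO against 50.4 ± 14.97 CPM with the label WT (SD, n = 3). Spint1, its inhibitor (0.87 ± 0.18), Rab25, a GTPase of epithelial vesicle traffic (0.75 ± 0.16), and Pkp3, a desmosomal plakophilin (1.00 ± 0.23), rose as well. Each factor was therefore also set against the mean log2 level of these 14 genes in the same library. Grainyhead-like factors regulate junction genes, so this mean may not be independent of the factors set against it.

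Against that epithelial mean most genes were lower in the libraries labelled KO, since 75.5% of all genes tested were lower without overlap and 1.46% were higher without overlap. Ovol1 remained higher in the libraries labelled KO, at -0.15, -0.02 and 0.32 in KO replicates 1, 2 and 3 and -0.44, -0.39 and -0.55 in WT replicates 1, 2 and 3 (log2 of the ratio). Grhl1 did too, at -0.10, 0.04 and -0.34 against -0.42, -0.35 and -0.59, although KO replicate 3 lay next to WT replicate 2. Sox2, Klf5 and Grhl2 were lower relative to it without overlap, as most genes were, so their place is no result about these factors. Klf5 stood at -0.41, -0.48 and -0.45 against 0.18, -0.05 and 0.09, a difference of -0.52. Grhl2 differed by -0.23 with little spread on either side (SD 0.02 and 0.01), and Sox2 by -0.37. For these 5 factors the exact permutation p was 0.1 (2-sided), the smallest that 3 against 3 libraries can give.

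For the other five factors the groups overlapped on this relative scale. Klf4, called by its level, differed by 0.15 relative to the epithelial mean (exact permutation p = 0.3), Grhl3 by 0.23 (exact permutation p = 0.2) and Elf3 by 0.31 (exact permutation p = 0.2). One library moved several of these values: Elf3 differed by 0.09 without WT replicate 2, Grhl3 by 0.11 without WT replicate 1 and Klf4 by 0.06 without KO replicate 2. Trp63 differed by 0.07 (exact permutation p = 0.9), and by -0.10 without WT replicate 3. Pitx1 differed by -0.14 (exact permutation p = 0.2). Relative to the mean of the 20 basal genes linked to p63, Klf5 was lower without overlap (-0.28), beside 46.6% of all genes. Ovol1 (0.75), Grhl1 (0.56), Elf3 (0.55), Grhl3 (0.47) and Trp63 (0.31) were higher without overlap, beside 3.31% of all genes. Each was again at the smallest possible exact permutation p of 0.1. Sox2 (-0.13), Grhl2 (0.01), Pitx1 (0.10) and Klf4 (0.39) overlapped there. The gap between labels was narrow for Trp63, with 0.438 in KO replicate 2 and 0.429 in WT replicate 1. It was also narrow for Grhl3, with -1.15 in KO replicate 3 and -1.21 in WT replicate 3. The 20 genes include Dst (-0.77) and Fras1 (-0.86), whose own log2 fold changes were below 0. A mean without them was not computed, so these separations may depend on the choice of list.

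**Figure D3:**
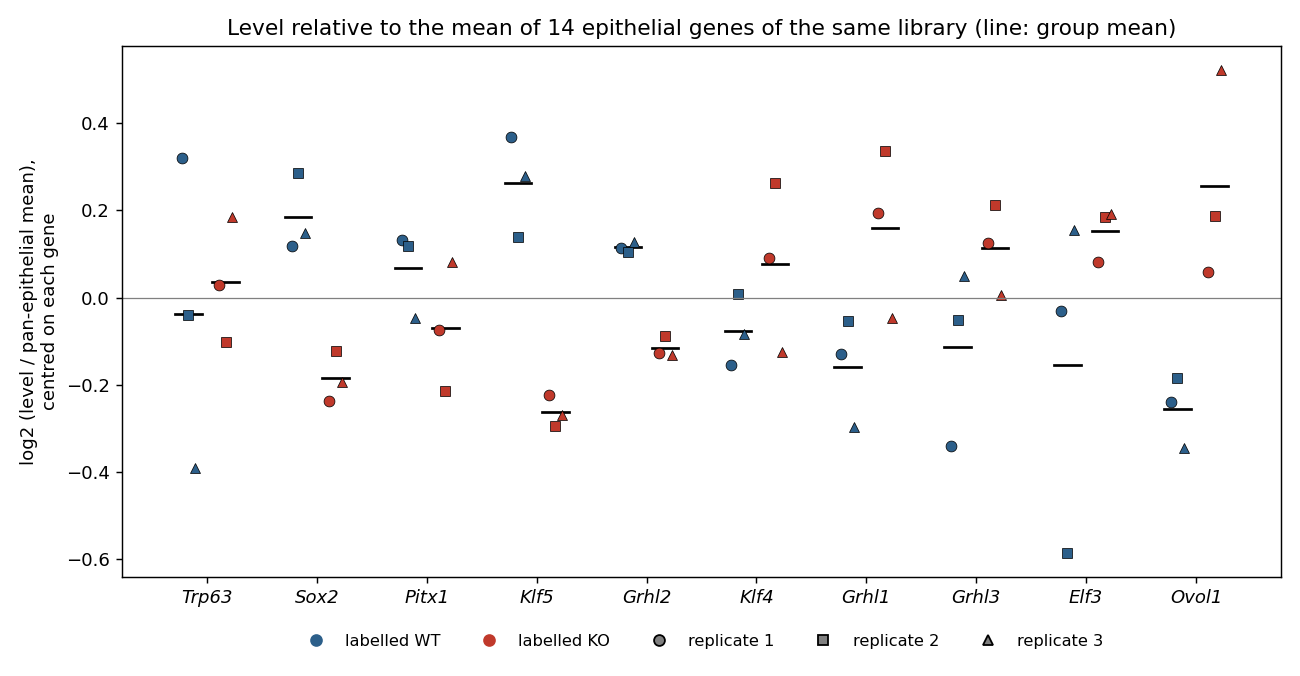
Log2 ratio of each factor to the mean of 14 epithelial genes of the same library, centred on each gene, with points for libraries and lines for group means. Ovol1 and Grhl1 lie higher and Sox2, Klf5 and Grhl2 lower in the libraries labelled KO without overlap, and the other 5 overlap.

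The ratio of each factor to Trp63 within a library gave no separation of labels for 8 of the 9 others. The CPM of Ovol1 were 0.307, 0.367 and 0.379 of those of Trp63 in KO replicates 1, 2 and 3 and 0.204, 0.271 and 0.310 in WT replicates 1, 2 and 3. The ratio of WT replicate 3 lay within the range of the libraries labelled KO. Klf5 was the exception, at 0.255, 0.266 and 0.222 against 0.315, 0.345 and 0.484, where 52.4% of all genes were lower relative to Trp63 without overlap. For the other 8 factors these ratios do not show a change that differs from that of Trp63, although some passed the threshold and Trp63 did not.

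Fitting the pan-epithelial mean, the fast muscle mean or sex as a covariate left 0 of the 10 factors called by edgeR, and 0 genes of the whole table. With the pan-epithelial mean 1 factor was higher and 2 were lower at an unadjusted p under 0.05, beside 222 and 256 of 15903 genes. With the muscle mean 2 factors were higher, beside 168 genes, and with sex 6 were higher, beside 1672 genes. No other tool was run with covariates. With the epithelial mean the highest estimates were those of Grhl3 (0.65 ± 0.24) and Ovol1 (0.57 ± 0.30), and those of Klf5 (-0.67) and Trp63 (-0.66) were the lowest. Subtracting the same mean, as above, gave 0.07 for Trp63. With sex as a covariate the estimates moved little (Ovol1 1.197 ± 0.28, Grhl3 1.15 ± 0.20, Klf4 1.06 ± 0.30). All 3 libraries labelled WT were male, and with sex as a term the label is compared through KO replicate 1 alone.

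Of 32 other transcription factors of stratified epithelium with enough counts, 7 rose and 0 fell, and the median change was 0.49 on the log2 scale. Prdm1, which encodes the repressor Blimp1, averaged 21.9 ± 2.998 CPM with the label KO against 10.6 ± 2.04 CPM with the label WT (1.05 ± 0.18, edgeR adjusted p = 0.0315). Hopx, a homeodomain-only protein of upper layers, stood at 153 ± 51.2 and 56.6 ± 10.4 CPM (1.43 ± 0.25). Zfp750, a p63 target that drives terminal differentiation, stood at 127 ± 12.5 and 65.1 ± 14.7 CPM (0.96 ± 0.17), and the Krüppel-like repressor Klf3 at 73.1 ± 5.39 and 42.8 ± 5.84 CPM (0.77 ± 0.14). Tfap2a, Elf5 and Ehf also rose. Hey1, a Notch target, was the only one of the 32 with an estimate below 0 and did not pass (-0.48 ± 0.30, edgeR adjusted p = 0.270), and Lhx2 had too few counts to test. The 7 calls became 0 without KO replicate 1, 2 or 3 or WT replicate 2, where 10 to 16 of the 32 had an unadjusted p under 0.05 by edgeR, the only tool run there, and 16 without WT replicate 1.

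**Figure D4:**
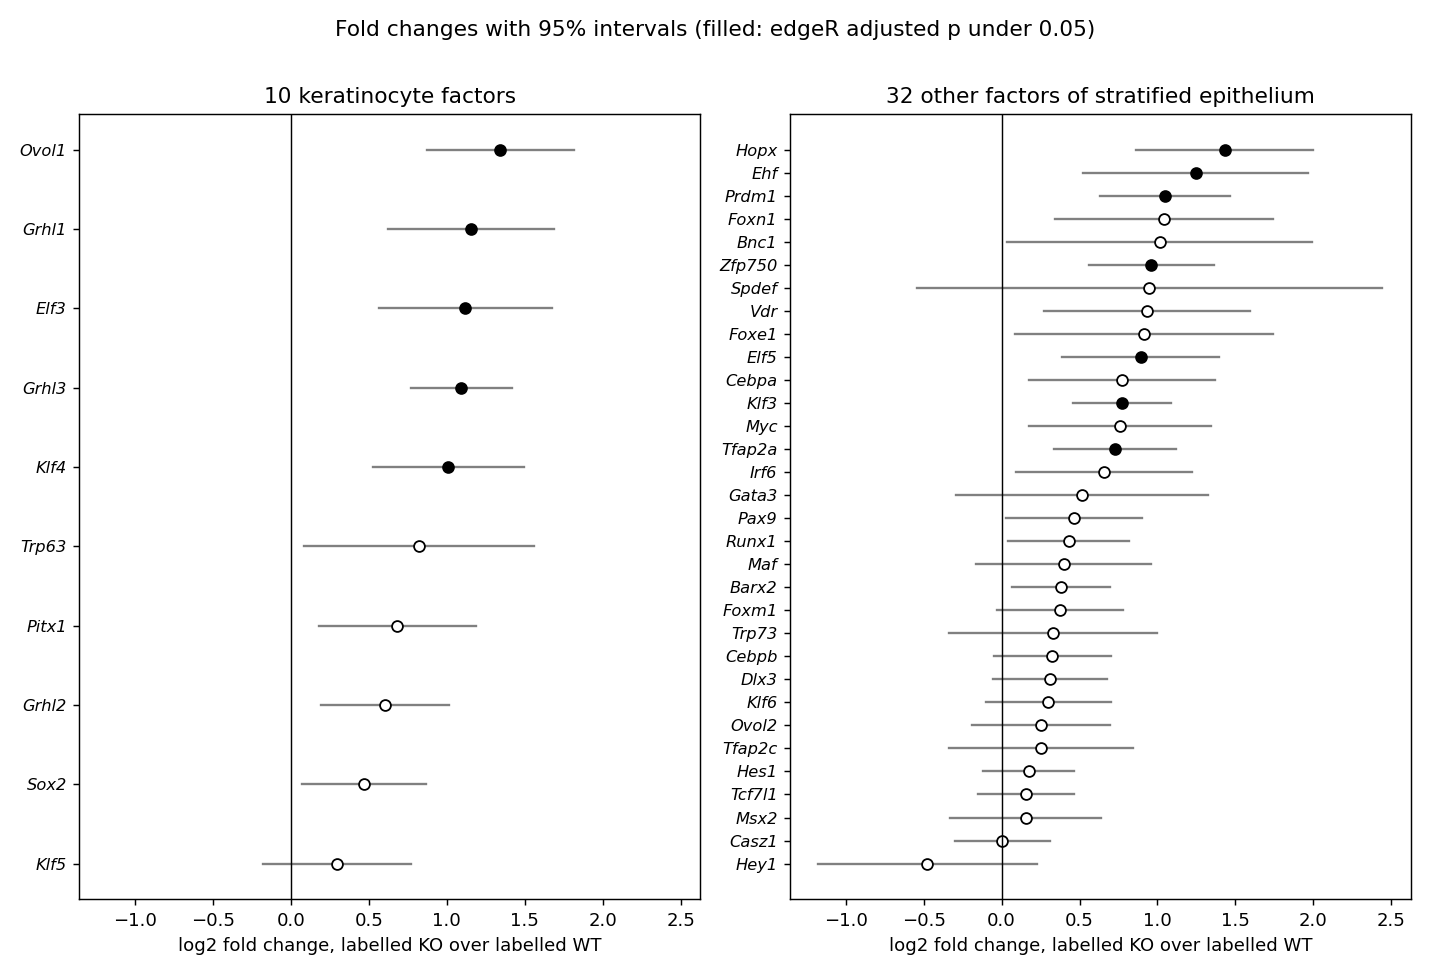
Log2 fold change (labelled KO over labelled WT, point) and 95% interval (line) of the 10 keratinocyte factors (left) and 32 other factors of stratified epithelium (right), filled where the edgeR adjusted p is under 0.05. Filled points are 5 of 10 on the left and 7 of 32 on the right, all above 0.

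Genes that these factors are known to act on were counted from lists. Of 20 basal keratinocyte genes linked to p63, 0 were called by edgeR, although 12 had an unadjusted p under 0.05 and a higher level and 2 a lower one. The median change was 0.63 on the log2 scale. By DESeq2 7 rose and 2 fell, by limma-voom 1 rose and 1 fell, and edgeR without a filter on low counts called 1 higher. The smallest adjusted p values belonged to Perp, a desmosomal p63 target (1.12 ± 0.30, edgeR adjusted p = 0.0505), and Dst, the cytolinker dystonin, which is also expressed in muscle and nerve (-0.77 ± 0.22, edgeR adjusted p = 0.0528). Without WT replicate 1, 17 of the 20 rose and 1 fell. Over 29 squamous differentiation and barrier genes, 17 rose and 0 fell, with a median of 1.14. Cldn4, a claudin of tight junctions, averaged 42.5 ± 0.876 CPM with the label KO against 15.01 ± 2.30 CPM with the label WT (1.502 ± 0.14, edgeR adjusted p = 0.0264). The envelope precursors Sprr1a (2.34 ± 0.26) and Sprr1b (2.39 ± 0.32) and cornifelin, Cnfn (0.99 ± 0.14), followed. The count of 17 was 0 without KO replicate 1, KO replicate 2 or WT replicate 2, 3 without KO replicate 3 and 7 without WT replicate 3, with 21 to 25 of the 29 at an unadjusted p under 0.05 in those 5 fits.

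Markers of other cells moved between the same groups, and their part in the results was not tested. Summed over the list, fast muscle genes stood at 47276 to 66761 CPM in the libraries labelled KO and 83656 to 152684 CPM in those labelled WT (7 of 20 fell, such as Ampd1 at -1.23 ± 0.23). Fibroblast genes stood at 1073 to 1449 and 1653 to 1982 CPM (3 of 10 fell), endothelial genes at 431 to 533 and 599.7 to 767 CPM (3 of 10 fell), and smooth muscle and pericyte genes at 1903 to 2557 and 2655 to 5187 CPM (2 of 8 fell). Des made up most of this last sum in every library. Its range was 1476 to 2047 CPM with the label KO and 2141 to 4541 CPM with the label WT. Notch3 (0.27 ± 0.13) and Acta2 (0.13 ± 0.21) of the same list had estimates above 0 and were not called. Klf4 is known from endothelium and myeloid cells as well. Of 9 macrophage and neutrophil genes 2 rose, Csf3r and Cd14, with summed levels of 782 to 2059 and 196 to 531 CPM. S100a8 and S100a9, which keratinocytes also express, made up most of that sum in the libraries labelled KO and in WT replicate 1, and Lyz2 was the highest of the list in WT replicates 2 and 3 (105 and 103 CPM). Schwann cell genes, of interest for Sox2, stood at 329 to 379 and 406 to 557 CPM (3 of 8 fell). Taste bud genes stood at 38.1 to 47.5 and 48.2 to 52.1 CPM (1 of 6 fell, Entpd2), with Tas1r2, Gnat3, Trpm5 and Pkd2l1 too low to test. The taste bud list was split in direction despite its lower sum, and its median log2 fold change was 0.30. Before adjustment, edgeR gave p below 0.05 for 2 of its genes with positive estimates and 2 with negative ones. Salivary gland genes stood at 32.8 to 38.4 and 28.3 to 88.1 CPM, most of it Amy1 (0 of 6 called by edgeR, 1 higher at an unadjusted p under 0.05). Dcpp1, Dcpp2, Dcpp3, Pip and Prol1 of that list had 0 counts in every library. The calls in these marker lists were all lost without KO replicate 1, 2 or 3 or WT replicate 2 and with each covariate by edgeR. Of the 20 fast muscle genes 11 to 18 were then lower at an unadjusted p under 0.05 without those replicates and 0 to 12 with the covariates. The muscle covariate is the mean of these same 20 genes, so the loss with it was largely set in advance. Without WT replicate 1, 16 of the 20 were called.

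Levels can be compared between factors only per length, here CPM per kilobase of GENCODE exons. Among the libraries labelled KO, Klf4 (109 ± 19.6) and Pitx1 (108 ± 6.67) stood highest and did not differ beyond their spread. Grhl3 (53.4 ± 6.50), Trp63 (47.2 ± 2.75), Ovol1 (46.7 ± 5.15) and Grhl1 (35.1 ± 6.29) followed, and Grhl3, Trp63 and Ovol1 could not be ordered within their SDs. Sox2 (21.5 ± 1.55) and Klf5 (18.8 ± 1.27) were neighbours, and Grhl2 (13.7 ± 0.908) and Elf3 (9.14 ± 0.423) stood lowest. In the libraries labelled WT the top was Pitx1 (67.5 ± 20.4) and Klf4 (54.4 ± 11.6), then Trp63 (26.7 ± 13.1) and Grhl3 (25.01 ± 2.65). Ovol1 (18.4 ± 5.05) stood above Grhl1 (15.7 ± 4.57), Sox2 (15.5 ± 3.50) and Klf5 (15.3 ± 4.80) in each library labelled WT. Grhl1, Sox2 and Klf5 could not be ordered among themselves, and Grhl2 (8.9995 ± 2.23) and Elf3 (4.21 ± 1.45) were again lowest. Both the counts and the exon length of Trp63 join 8 transcripts, so its level per kilobase belongs to no single one. The exon length of Klf5 includes a stretch past its RefSeq gene end. The annotation used for counting is not given, so the level of Klf5 per kilobase may be too low.

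The spread among libraries was wider with the label WT for 9 of the 10 factors. The highest library labelled WT exceeded the lowest by 1.24-fold (Grhl3) to 2.65-fold (Trp63), and in the libraries labelled KO by 1.09-fold (Elf3) to 1.44-fold (Klf4). Grhl3 was the exception, with 1.27-fold in the libraries labelled KO. WT replicate 1 was the highest of its group for all 10 and WT replicate 3 the lowest for 9, all but Elf3, for which WT replicate 2 was lowest. WT replicate 1 also had the lowest fast muscle share of its group, 8.68%, and WT replicate 3 the highest, 13.2%. The part of muscle content in this spread was not tested.

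Profiles were compared by the root mean square difference between log2 levels of 2 genes over the 6 libraries, each centred on its own mean. Among the 45 pairs of factors the closest were Sox2 and Grhl2 (0.092), Klf4 and Grhl1 (0.108) and Klf4 and Grhl3 (0.112), and the farthest were Klf5 and Ovol1 (0.548). Among 11409 other genes of at least 5 CPM, the closest to Klf4 was Scnn1a, a subunit of the epithelial sodium channel (0.029), and to Grhl2 Dennd2c (0.032). Pitx1 was closest to Cdca4 (0.038) and Ampd2, Sox2 to Stab1 (0.041) and Ube2e2, and Trp63 to Tagln2 (0.058) and Cxadr, a junction protein. Grhl1 was closest to Nucb2 (0.087) and Perp, Grhl3 to Stx11 (0.081) and Lrrc8e, Klf5 to Tmem132a (0.068) and Kif15. Ovol1 was closest to Tmem40 (0.121) and the keratinocyte channel gene Trpv3, and Elf3 to Epha2 (0.125) and the kallikrein Klk13, the loosest matches of the 10. Likeness over 6 libraries says nothing of shared function or control.

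AU-rich elements, the class of sequence that HuR is known to bind, were counted in the 3′ untranslated regions of the GENCODE principal transcripts (GRCm38, sense strand). The pentamer ATTTA was present in 9 of the 10 factors, all but Pitx1, and in 66.0% of 14686 tested genes with such a region. Trp63 had 6 copies in 2798 bases, Sox2 4 in 1086 and Klf5 4 in 1707, against 1 copy each in Klf4, Grhl2, Grhl3, Elf3 and Ovol1 and 2 in Grhl1. The median over all tested genes was 1 copy. The longer nonamer TTATTTATT, which contains the pentamer, was found once each in Klf5 and Grhl2 and in 7.18% of all tested genes. Both sites are shown because they are the only full nonamers among the 10, with the nonamer in capitals, at chr14:99314659-99314687 for Klf5 and chr15:37361082-37361110 for Grhl2, both on the plus strand. The GENCODE transcript of Klf5 runs past the RefSeq gene end given below, and its site lies in that extension.
Klf5: tgttttatcaTTATTTATTttgtggtaat
Grhl2: tggtaggcccTTATTTATTgcccatttcc

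Neither Klf5 nor Grhl2 was among the called factors, and the called factors had 1 or 2 pentamers each. The 3 factors with the most pentamers, Trp63, Sox2 and Klf5, did not pass either. Nor did Pitx1, with 0 pentamers, and Grhl2 had 1, as most of the called factors did. With 10 genes and no binding or decay measured, this is a description of sequence beside fold change.

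For reading the single values, the positions in GRCm38 are chromosome 3, 34649995 to 34652461 for Sox2, chromosome 13, 55825044 to 55836190 for Pitx1, chromosome 4, 55527137 to 55532475 for Klf4, and chromosome 14, 99298691 to 99313412 for Klf5. Grhl1 lies at chromosome 12, 24572232 to 24617391, Grhl2 at chromosome 15, 37232821 to 37363569, Grhl3 at chromosome 4, 135541887 to 135573632, Elf3 at chromosome 1, 135253574 to 135258472, and Ovol1 at chromosome 19, 5549137 to 5560575. All 10 are protein-coding. Exons of genes on the other strand cover 23.2% of the exon bases of Ovol1 for Gm31166, a processed pseudogene, and 2.56% for AC126029.1. They cover 7.73% of the exon bases of Elf3, 6.73% of Pitx1 and 2.32% of Grhl2. The strand setting of the counting is not stated, so reads there could come from either gene.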

How the data were processed

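Gene counts of 6 tongue libraries were analysed. The authors deposited 3 tables of raw read counts per gene (24067 rows), 1 with 6 libraries and 2 with 4, whose shared libraries hold identical counts. Per the file headers the deposited tables also give a mean normalised count (a signal), a log2 fold change with its SE, a test statistic (a score) and p-values of the authors' own comparison. The tools DESeq2 and HTSeq and the builds mm10 and hg19 are named per the submitters' processing notes, without their roles. Aligner, annotation and strand use: not given in the sources used here.

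Counts were filtered with filterByExpr (10 counts in a group's worth of libraries, 15 in all), scaled by TMM and fitted in edgeR 4.0.16 (R 4.3.3) by a robust quasi-likelihood model with group as the only term, adjusted by Benjamini and Hochberg over 15903 genes at a threshold of 0.05. The biological coefficient of variation was 20.7%. At 1 CPM a library had 25.6 to 53.0 counts. SE is the log2 fold change over the square root of F. Log2 levels used a prior count of 2. DESeq2 1.42.0 and limma 3.58.1 were alternatives. Sex was read from Xist and Y-linked genes. The edgeR script was tested on simulated data. Positions and promoters are from RefSeq (GRCm38.p6), lengths and 3′ ends from GENCODE M21.

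The factors and the gene lists were chosen with earlier results of these data known. One gene was taken out of the list of other epithelial factors after the analysis and is not reported here, for a reason unrelated to its values. Named genes are the 10 factors, Elavl1, up to 4 genes per list and direction with the smallest adjusted p (2 where none passed) and, per factor, the 2 genes of at least 5 CPM with the nearest profile. Tfap2a, Elf5, Ehf, Hey1 and Lhx2, and marker genes named for their level or role, fall outside that rule and were named after their values were seen.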

Additional observations from a re-analysis of the deposited data

How the results depend on the processing

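Over all genes the count of 1946 calls was 1942 with relative log expression size factors, 2258 with limma-voom and 2164 without a filter, but 4381 with DESeq2, 0 with each of the 3 covariates (edgeR, where the genes with an unadjusted p under 0.05 numbered 222 up and 256 down for the pan-epithelial mean, 168 and 179 for the muscle mean and 1672 and 1860 for sex) and 0 to 5844 when single replicates were left out. The 5 calls among the 10 factors were 8 with DESeq2, 0 with each covariate and 0 to 10 without single replicates. The 7 calls among other epithelial factors were 13 with DESeq2, 0 with each covariate and 0 to 16 without single replicates, and the 17 among differentiation genes were 0 with each covariate and 0 to 20 without single replicates. The 0 among p63-linked genes were 9 with DESeq2, 2 with limma-voom, 1 without a filter and 0 to 18 without single replicates. With the pan-epithelial mean the log2 fold changes of Trp63, Sox2, Pitx1, Klf5 and Grhl2 turned to -0.66, -0.30, -0.25, -0.67 and -0.23, and with the muscle mean that of Klf5 to -0.40, none of them called. Both means separated the labels without overlap, so these fits can hardly set the label apart from them, and the cause was not tested.

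Replicate numbers were not used to pair the libraries in the main fit. Deviations of same-numbered libraries correlated at 0.12, -0.16 and 0.19 for numbers 1, 2 and 3, and those of unlike numbers at -0.22 to 0.17. Deviations centred within 3 libraries constrain each other, so these values cannot settle whether the libraries are paired. With the replicate block 3817 genes were called, 9 of the 10 factors (all but Klf5), 13 other factors, 10 p63-linked genes and 22 differentiation genes. Counting error is small for the factors, which had at least 216 counts per library, so the 3 libraries per group limit the precision. No alternative was left out.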
